A study of Homo sapiens with 24 samples.

Results

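Long noncoding RNAs are transcripts that are spliced and polyadenylated much like messenger RNAs but carry no recognised protein. Some act in the nucleus, as scaffolds of nuclear bodies or beside the chromatin of neighbouring genes, and others are known mainly as the hosts from which microRNAs or small nucleolar RNAs (snoRNAs) are cut. Several have been tied to the cell cycle arrest of senescence, in which growth stops for good and secretion of inflammatory factors begins. The 10 long noncoding RNAs described here are *GAS5* and *DANCR*, which host snoRNAs, *MIR31HG*, *MIR22HG* and *H19*, which host microRNAs, *NEAT1* and *MALAT1*, 2 RNAs of nuclear bodies, *MEG3*, which like *H19* is imprinted, and *PVT1* and *CDKN2B-AS1*, which lie beside *MYC* and the *CDKN2A*/*CDKN2B* genes. They were taken by Entrez identifier from the 25702 identifiers that were counted, and 8 of the 10 had enough counts to be tested among 13356 tested genes.

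The RNA-seq data came from IMR90 cells, human lung fibroblasts, at passage 23 to 28. All 24 samples carried ER:HRAS(G12V), an oncogenic RAS whose oestrogen receptor part keeps it idle until 4-hydroxytamoxifen (4OHT) is added, after which the cells enter RAS-induced senescence (RIS). There were 4 groups of 6 biological replicates each, namely growing cells with an MSCV control vector, growing cells with a miR30-based hairpin against *HMGA1* (shHMGA1), vector cells treated with 4OHT for 6 days (RIS), and hairpin cells treated likewise (RIS+shHMGA1). *HMGA1* encodes an architectural chromatin protein of the nucleus. Both constructs were brought in by retrovirus, and a single hairpin stood for the loss of *HMGA1*. The comparisons ask how the 10 RNAs differ between growing and senescent cells, and whether the hairpin moves them.

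Samples held between 8698070 and 23103424 counts in total, and the 10 RNAs together took 0.0312% to 0.0716% of it. *HMGA1* was at 639 to 861 CPM (counts scaled to library size) in growing and 641 to 786 CPM in RIS, against 54.4 to 143 CPM in shHMGA1 and 60.0 to 262 CPM in RIS+shHMGA1, so that every hairpin sample lay below every vector sample. The factors that adjusted library sizes (TMM) differed by group. They were 0.851 to 1.12 in growing, 1.09 to 1.16 in shHMGA1, 0.946 to 1.13 in RIS and 0.736 to 0.956 in RIS+shHMGA1. A lower factor gives a higher CPM. Whether the groups that separate below also separate without these factors was not tested. All 10 fibroblast markers averaged at least 1 CPM in each group, and of 12 markers of other cell types, 3 were at 1 CPM or more in every sample, the keratin genes *KRT8* (1.78 to 11.4 CPM) and *KRT18* (26.4 to 49.1 CPM) and the lysosomal gene *CD68* (40.2 to 105 CPM). These took most of the summed epithelial list (33.3 to 52.4 CPM) and leukocyte list (40.7 to 106 CPM), and their part in the results was not tested. *EPCAM*, *VWF* and *CD14* reached 1 CPM in 1 sample each and *PECAM1* in 2, while *CDH5*, *PTPRC*, *CD3E*, *CDH1* and *SFTPC*, defining markers of endothelial, leukocyte and epithelial cells, stayed under 1 CPM in all 24. The summed fibroblast markers moved with the groups, at 5965 to 51430 CPM in growing, 16223 to 23464 CPM in shHMGA1, 6831 to 32201 CPM in RIS and 5346 to 6920 CPM in RIS+shHMGA1, and their part in the results below was not tested. A pair of libraries stood apart from their groups. In growing replicate 4, 8 senescence markers summed to 76309 CPM, against 5773 to 12443 CPM in the other growing samples, and 6 proliferation markers summed to 87.6 CPM, against 496 to 719 CPM. In RIS replicate 2 the senescence markers summed to 5695 CPM, against 27353 to 56170 CPM in the other RIS samples, and the proliferation markers to 572 CPM, against 69.8 to 99.5 CPM. Both libraries were kept in their labelled groups, and the main fitted values of comparisons that use those groups are given with and without them.

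The positions of the RNAs are given first, and then the microRNAs that some of them host. In the hg19 build (GRCh37), *GAS5* lies at chr1:173827697-173838020 on the minus strand, *DANCR* at chr4:53578492-53589790 on the plus strand, *MIR31HG* at chr9:21380072-21559890 on the minus strand, *MIR22HG* at chr17:1614741-1620468 on the minus strand, *NEAT1* at chr11:65190245-65213011 on the plus strand, *MALAT1* at chr11:65265111-65275544 on the plus strand, *H19* at chr11:2016396-2025782 on the minus strand, *MEG3* at chr14:101245747-101327368 on the plus strand, and *CDKN2B-AS1* at chr9:21994138-22128102 on the plus strand. GENCODE annotates all of them as long noncoding RNAs. Mature microRNA sequences from RefSeq are shown for 5 of the hosts, and each matched the GRCh37 chromosome of its host at 1 position. They are shown because the host RNA, and not the mature microRNA, is what these libraries measure. Capitals mark the seed, bases 2 to 8 from the 5′ end, with which a microRNA pairs to its targets, and no seed was shared between hosts.
miR-31-5p (in *MIR31HG*, chr9:21512157-21512177, minus strand): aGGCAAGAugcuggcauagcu
miR-22-3p (in *MIR22HG*, chr17:1617208-1617229, minus strand): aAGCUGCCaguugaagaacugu
miR-22-5p (in *MIR22HG*, chr17:1617246-1617267, minus strand): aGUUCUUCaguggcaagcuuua
miR-675-5p (in *H19*, chr11:2018030-2018052, minus strand): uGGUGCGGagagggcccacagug
miR-675-3p (in *H19*, chr11:2017998-2018017, minus strand): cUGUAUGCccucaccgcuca
miR-770-5p (in *MEG3*, chr14:101318746-101318768, plus strand): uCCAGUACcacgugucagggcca
miR-4449 (in *DANCR*, chr4:53578887-53578908, plus strand): cGUCCCGGggcugcgcgaggca

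Many snoRNA host RNAs, *GAS5* among them, are known to begin with a C followed by further pyrimidines, the start found in messenger RNAs of ribosomal proteins. The next sequences run from 20 bases before to 20 bases after the first base of the canonical GENCODE transcript in GRCh37. They are shown for *GAS5* and *DANCR*, and for *ZFAS1* and *SNHG5*, the snoRNA hosts with the largest rise in the results. *MIR31HG* and *NEAT1*, which are not listed here as snoRNA hosts, follow. GENCODE does place the snoRNA gene *SNORD39* inside the *MIR31HG* locus on the same strand, sharing no exon bases with it. Capitals mark the longest run of C or T that starts with C within 5 bases of the annotated start on either side.
*GAS5* (chr1:173837107-173837147, minus strand): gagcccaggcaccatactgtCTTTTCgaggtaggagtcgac
*DANCR* (chr4:53578648-53578688, plus strand): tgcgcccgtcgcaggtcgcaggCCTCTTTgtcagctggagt
*ZFAS1* (chr20:47895159-47895199, plus strand): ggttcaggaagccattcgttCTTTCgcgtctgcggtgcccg
*SNHG5* (chr6:86388446-86388486, minus strand): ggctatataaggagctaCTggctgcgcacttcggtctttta
*MIR31HG* (chr9:21559828-21559868, minus strand): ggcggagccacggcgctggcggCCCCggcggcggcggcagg
*NEAT1* (chr11:65190249-65190289, plus strand): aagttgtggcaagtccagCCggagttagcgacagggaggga
The run was 6 bases long at *GAS5* and 7 at *DANCR*, and it was 4 or shorter at the other 6 tested RNAs. A run of at least 5 bases stood at 5 of 18 other snoRNA host RNAs (27.8%), near the 22.3% of the 12636 tested genes with a canonical start. This is a description of the letters at annotated starts, and the starts used in these cells were not measured.

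RIS was compared with growing cells to ask which RNAs follow senescence in vector cells. With all 24 libraries none of the 8 tested RNAs passed the threshold. With both libraries left out, *GAS5*, *DANCR*, *PVT1* and *MIR31HG* were higher in RIS and *MALAT1* was lower. *GAS5* rose 2.62-fold, *DANCR* 2.37-fold, and *PVT1* 1.80-fold, *MIR31HG* passed narrowly with a log2 fold change of 0.58, and *MALAT1* was at 0.513 of its growing level. Both libraries were picked out by markers in these same data that differ between growing and RIS. FDRs of the fit without them can therefore be too small. *NEAT1*, *MEG3* and *MIR22HG* passed it in neither fit.

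*GAS5* is a snoRNA host named for its accumulation in growth-arrested cells. In growing cells it ranged from 34.8 to 292 CPM with a median of 53.8 CPM, and in RIS from 34.6 to 175 CPM with a median of 126 CPM. The highest growing sample was replicate 4 and the lowest RIS sample was replicate 2; among the others, 34.8 to 72.3 CPM in growing met 60.6 to 175 CPM in RIS, so that the groups still overlapped. The log2 fold change was 0.35 ± 0.45 (SE) with all libraries (edgeR quasi-likelihood test, Benjamini-Hochberg FDR = 0.593) and 1.39 ± 0.28 without both libraries (FDR = 0.000144).

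*DANCR* also hosts a snoRNA and is known for holding back cell differentiation. It ranged from 16.6 to 77.2 CPM in growing (median 21.8 CPM) and from 15.2 to 62.1 CPM in RIS (median 46.1 CPM). The same libraries lay at the far ends, and without them 16.6 to 26.3 CPM in growing lay wholly under 36.0 to 62.1 CPM in RIS. The share of all tested genes that separated in this way was not counted. By edgeR, the log2 fold change went from 0.54 ± 0.32 (FDR = 0.244) to 1.24 ± 0.16 (FDR = 5.21e-07) once they were left out.

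*PVT1*, which lies beside *MYC*, ranged from 4.03 to 10.2 CPM in growing (median 4.71 CPM) and from 4.44 to 9.30 CPM in RIS (median 8.02 CPM). Without growing replicate 4 and RIS replicate 2 the groups did not overlap, at 4.03 to 4.81 CPM and 7.12 to 9.30 CPM. How common such a separation was among all tested genes was not counted. Its log2 fold change was 0.49 ± 0.20 with all libraries (edgeR FDR = 0.0979) and 0.85 ± 0.14 without both (edgeR FDR = 1.10e-05).

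*MIR31HG*, the host of miR-31 and a known regulator of *CDKN2A* in RAS-induced senescence, ranged from 28.4 to 69.4 CPM in growing (median 35.3 CPM) and from 28.8 to 61.2 CPM in RIS (median 50.5 CPM). The groups overlapped with and without both libraries, since growing replicate 5 stood at 50.3 CPM. The log2 fold change was 0.26 ± 0.20 (edgeR FDR = 0.381), and 0.58 ± 0.15 (edgeR FDR = 0.00235) without both, just past the fold threshold.

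*MALAT1*, an RNA of nuclear speckles, moved the other way. Its values here and below cover only the *MALAT1* molecules that the selection for polyadenylated RNA retained. Growing samples ranged from 22.8 to 57.5 CPM (median 36.1 CPM) and RIS samples from 18.0 to 80.3 CPM (median 22.5 CPM). RIS replicate 2 was the sample at 80.3 CPM, and the other RIS samples, at 18.0 to 24.6 CPM, all lay below the other growing samples, at 30.5 to 57.5 CPM. Such separations were not counted over all tested genes. The log2 fold change was −0.30 ± 0.29 (edgeR FDR = 0.470) with all libraries and −0.96 ± 0.15 (edgeR FDR = 5.20e-06) without both.

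The remaining tested RNAs did not pass the threshold. *NEAT1*, the scaffold RNA of paraspeckles, ranged from 34.0 to 75.1 CPM in growing (median 47.6 CPM) and from 40.6 to 91.2 CPM in RIS (median 46.5 CPM), with a log2 fold change of 0.16 ± 0.22 that became −0.065 ± 0.20 without both libraries. *MEG3*, a maternally expressed imprinted RNA, ranged from 47.1 to 96.1 CPM in growing (median 66.9 CPM) and from 44.5 to 88.9 CPM in RIS (median 71.5 CPM), with a log2 fold change of −0.03 ± 0.21, or −2.4e-05 ± 0.21 without both. *MIR22HG*, the host of miR-22, ranged from 35.5 to 52.8 CPM in growing (median 45.8 CPM) and from 30.7 to 43.2 CPM in RIS (median 37.1 CPM), with a log2 fold change of −0.28 ± 0.10 (edgeR FDR = 0.0675), or −0.30 ± 0.11 without both (edgeR FDR = 0.0255).

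The count of 0 among these 8 RNAs with all libraries stands beside 0.0% of the 13356 tested genes by the same edgeR test. At an unadjusted p under 0.05 there were 2 of the 8 RNAs and 4407 genes, and DESeq2 called 0 of the 8 and 829 genes. Without both libraries, 5 of 8 were called where 39.7% of the tested genes were, and 4 of 8 were called higher where 19.2% were. The median log2 fold change of the 8 was then 0.29, and that of all tested genes −0.01. Without replicate 4 alone of each group 2 of 8 were called, beside 15.6% of tested genes, and without replicate 2 alone 1 of 8, beside 13.7%. As these are bulk samples, a change in the share of cells that express an RNA and a change in its level per cell cannot be told apart.

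**Figure D1:**
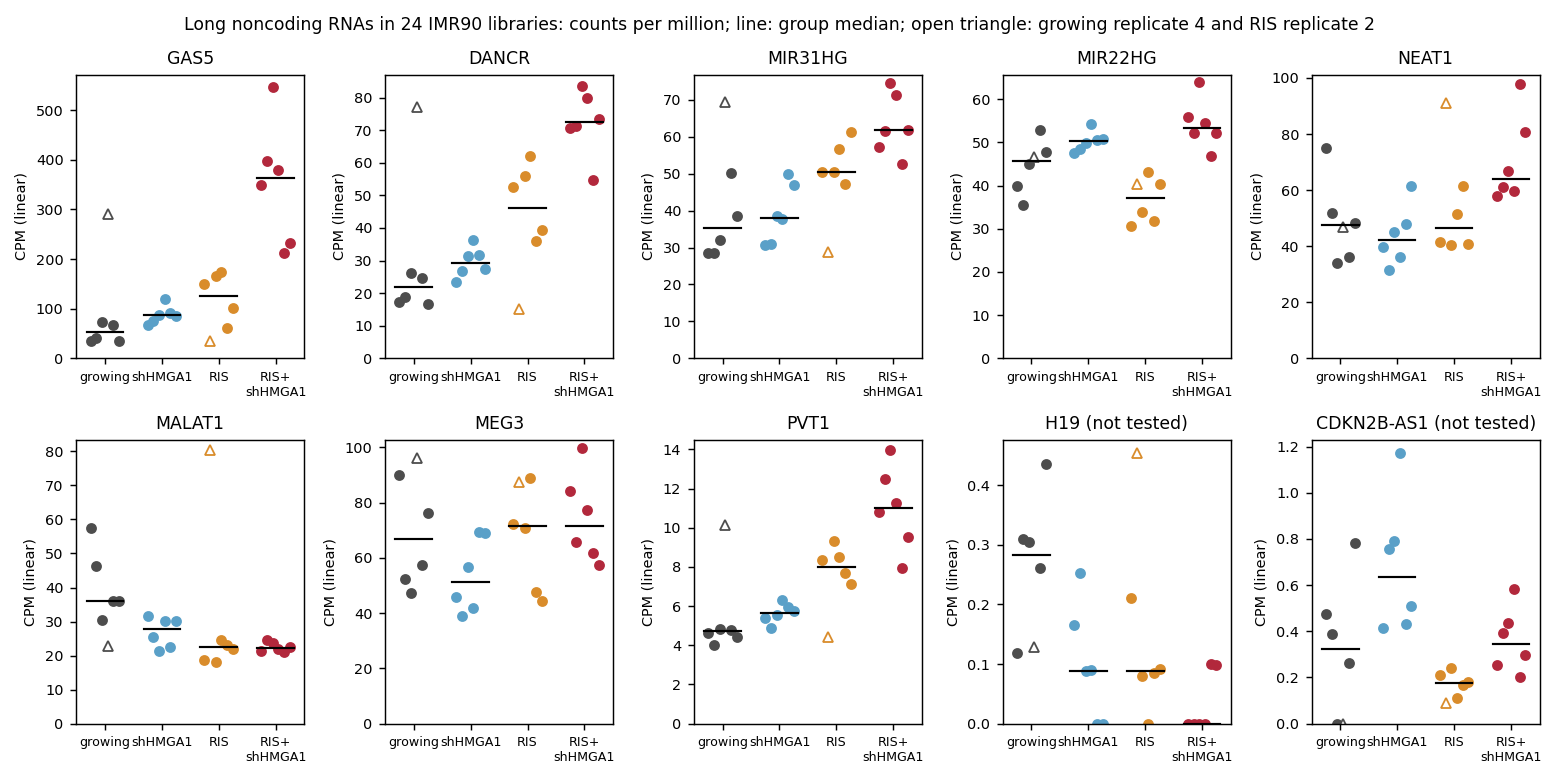
Level of each RNA in CPM (linear axis from 0) in the 24 samples, by group; each point is 1 library, the line is the group median, and open triangles are growing replicate 4 and RIS replicate 2. *GAS5*, *DANCR* and *PVT1* reach their highest medians in RIS+shHMGA1, at 364, 72.4 and 11.0 CPM, while *H19* and *CDKN2B-AS1* stay under 1.2 CPM throughout.

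RIS+shHMGA1 was compared with shHMGA1 to ask for the same in hairpin cells. Neither library that stood apart belongs to these groups, but both enter the shared estimate of the spread, and so the SEs and FDRs. With all libraries *GAS5* rose 4.01-fold, *DANCR* 2.45-fold, *PVT1* 1.95-fold, *NEAT1* 1.62-fold and *MIR31HG* 1.62-fold. In the fit without both, the edgeR FDR was 2.93e-07 for *GAS5*, 0.000149 for *MIR31HG* and 0.00190 for *NEAT1*. Their log2 fold changes there were 2.01, 0.69 and 0.70. *MALAT1*, *MEG3* and *MIR22HG* did not pass the threshold. All called RNAs moved upwards. For *GAS5*, *DANCR*, *PVT1* and *MIR31HG* the 6 samples of each group did not overlap. The share of all tested genes that separated likewise was not counted.

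*GAS5* ranged from 67.2 to 121 CPM in shHMGA1 (median 86.4 CPM) and from 213 to 546 CPM in RIS+shHMGA1 (median 364 CPM). Within RIS+shHMGA1, replicates 5 and 6 were at 213 and 233 CPM, and the other 4 samples lay between 348 and 546 CPM. Replicates 5 and 6 also had the least *HMGA1* of that group, at 60.0 and 75.1 CPM against 197 to 262 CPM. In shHMGA1 they again had the least *HMGA1*, at 58.1 and 54.4 CPM, with *GAS5* inside the range of the group, at 92.0 and 84.8 CPM. A link between the levels of these genes was not tested. The log2 fold change was 2.01 ± 0.46 (edgeR FDR = 0.00127). Without replicate 3 of each group the log2 fold change was 1.84 and just missed the FDR threshold (edgeR FDR = 0.0107).

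*DANCR* ranged from 23.3 to 36.5 CPM in shHMGA1 (median 29.3 CPM) and from 54.7 to 83.7 CPM in RIS+shHMGA1 (median 72.4 CPM), with no overlap. Its log2 fold change was 1.29 ± 0.32 (edgeR FDR = 0.00206). It missed the threshold without replicate 1 of each group, at a log2 fold change of 1.23 (edgeR FDR = 0.0115), and without replicate 3, at 1.27 (edgeR FDR = 0.0126).

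*PVT1* ranged from 4.88 to 6.30 CPM in shHMGA1 (median 5.64 CPM) and from 7.92 to 14.0 CPM in RIS+shHMGA1 (median 11.0 CPM), with a log2 fold change of 0.96 ± 0.20 (edgeR FDR = 0.000612). *MIR31HG* ranged from 30.7 to 49.9 CPM (median 38.0 CPM) and from 52.6 to 74.5 CPM (median 61.8 CPM), with a log2 fold change of 0.69 ± 0.20 (edgeR FDR = 0.00596). The *MIR31HG* groups were close at their edges, and the call was lost without replicate 1, 2, 3 or 6, at FDRs of 0.0110 to 0.0317 by edgeR.

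*NEAT1* ranged from 31.4 to 61.5 CPM in shHMGA1 (median 42.4 CPM) and from 57.7 to 97.9 CPM in RIS+shHMGA1 (median 63.9 CPM). The groups overlapped, with the highest shHMGA1 sample above the lowest RIS+shHMGA1 sample. The log2 fold change was 0.70 ± 0.22 (edgeR FDR = 0.00903), and the call was lost without any 1 of the replicate numbers (edgeR FDR = 0.0116 to 0.0357). The libraries were made from polyadenylated RNA, and the long form of *NEAT1* that builds paraspeckles has no poly(A) tail, so the level of that form was not measured here.

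*MALAT1* was at 21.3 to 31.7 CPM in shHMGA1 (median 27.8 CPM) and 21.2 to 24.6 CPM in RIS+shHMGA1 (median 22.2 CPM), with a log2 fold change of −0.25 ± 0.29 (edgeR FDR = 0.443). *MEG3* was at 38.9 to 69.4 CPM (median 51.3 CPM) and 57.3 to 99.6 CPM (median 71.5 CPM), with a log2 fold change of 0.47 ± 0.21 (edgeR FDR = 0.0567). *MIR22HG* was at 47.5 to 54.3 CPM (median 50.2 CPM) and 46.7 to 64.0 CPM (median 53.3 CPM), with a log2 fold change of 0.11 ± 0.10 (edgeR FDR = 0.349). The samples of both groups overlapped for each of the last 3 RNAs.

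Of the 8 tested RNAs, 5 were called, all higher, where 39.1% of tested genes were called and 19.6% were called higher. DESeq2 also called 5, beside 41.4%. With both libraries left out of the shared fit the count was again 5 of 8, beside 44.4% of tested genes, and 22.5% higher. The median log2 fold change of the 8 was 0.69, against −0.02 over all tested genes. With any 1 replicate number left out the count fell to between 1 and 4, beside 22.7% to 41.1% of tested genes.

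**Figure D2:**
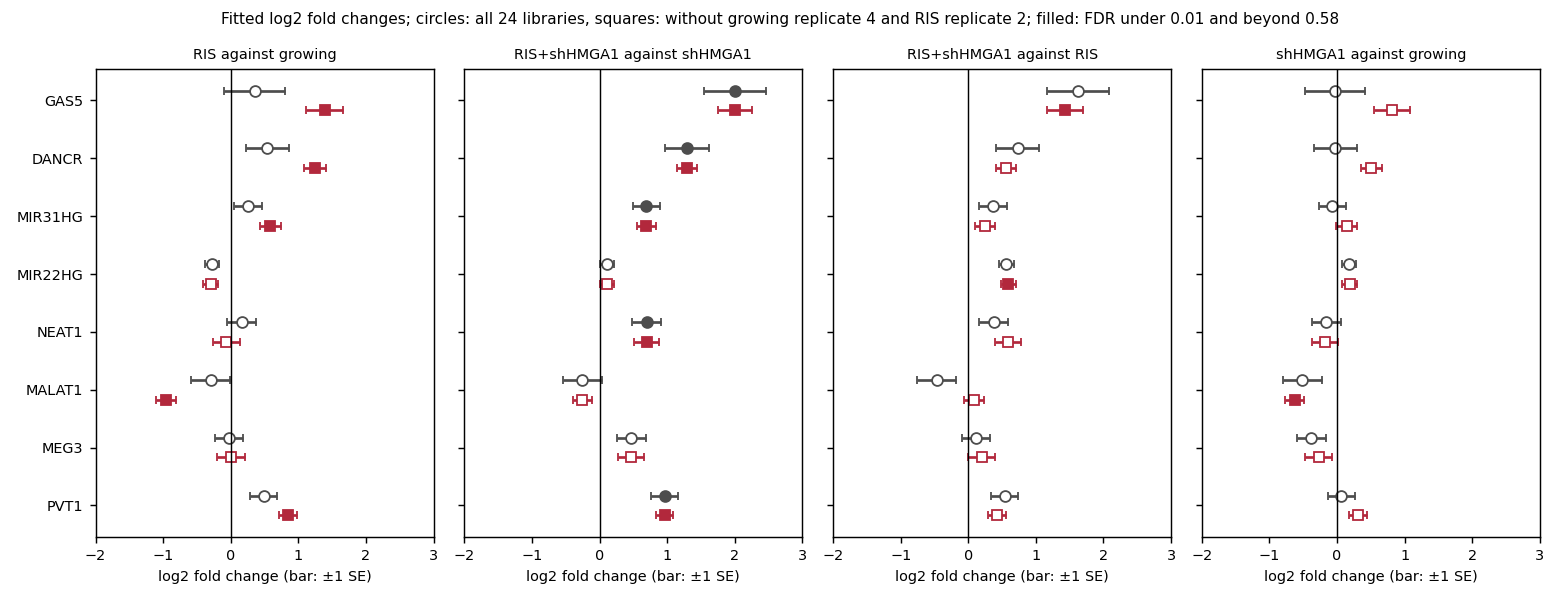
Fitted log2 fold change (points, bars ± 1 SE) of the 8 tested RNAs in 4 comparisons; circles are from all 24 libraries, squares from the fit without growing replicate 4 and RIS replicate 2, and filled symbols passed both thresholds (FDR 0.01, log2 fold change 0.58). *GAS5* in RIS against growing moves from 0.35 to 1.39 and *MALAT1* from −0.30 to −0.96 between the fits, and RIS+shHMGA1 against shHMGA1 stays in place.

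RIS+shHMGA1 was compared with RIS to ask what the hairpin changed in senescent cells. *GAS5* and *MIR22HG* were the RNAs whose 6 RIS+shHMGA1 samples all lay above the 6 RIS samples. How many of all tested genes did the same was not counted. *GAS5* had a log2 fold change of 1.62 ± 0.46 with all libraries, short of the threshold (edgeR FDR = 0.0171), and of 1.43 ± 0.27 without both (edgeR FDR = 0.00105), past both thresholds. *MIR22HG* had a log2 fold change of 0.56 ± 0.10 (edgeR FDR = 0.00331), short of the fold threshold, and of 0.59 ± 0.11 without both (edgeR FDR = 0.000982), a 1.51-fold rise.

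*MIR22HG* was at 30.7 to 43.2 CPM in RIS and 46.7 to 64.0 CPM in RIS+shHMGA1, with medians of 37.1 and 53.3 CPM. The shHMGA1 samples, at 47.5 to 54.3 CPM, also lay wholly above the RIS samples, while the growing samples overlapped all groups. This separation, too, was not counted over all tested genes. By median, *MIR22HG* was lowest in RIS. Its order of medians, RIS, growing, shHMGA1 and RIS+shHMGA1, was unlike that of *GAS5*, *DANCR*, *PVT1* and *MIR31HG*, in which growing was lowest and RIS+shHMGA1 highest.

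The other tested RNAs passed in neither fit. *DANCR* had a log2 fold change of 0.73 ± 0.32 (edgeR FDR = 0.0715), or 0.55 ± 0.15 without both libraries (edgeR FDR = 0.00752), short of the fold threshold. *PVT1* had 0.54 ± 0.20 (edgeR FDR = 0.0400), or 0.43 ± 0.13 without both (edgeR FDR = 0.0125). *NEAT1* had 0.38 ± 0.22 (edgeR FDR = 0.164), or 0.59 ± 0.19 without both (edgeR FDR = 0.0218), past the fold threshold but not that of the FDR. *MIR31HG* had 0.36 ± 0.20 and 0.25 ± 0.15, and *MEG3* 0.12 ± 0.21 and 0.20 ± 0.20, with all libraries and without both. *MALAT1* changed sign, from −0.47 ± 0.29 with all libraries to 0.08 ± 0.14 without both. By edgeR 0 of 8 were called with all libraries, beside 2.55% of the tested genes and 1.77% called higher. An unadjusted edgeR p under 0.05 was found for 4 of the 8, beside 6647 of the 13356 tested genes. DESeq2 called 2, beside 11.8%. Without both, 2 of 8 were called, beside 12.5%, and without replicate 4 of each group 3 of 8, beside 16.5%.

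RIS+shHMGA1 was also set against growing cells, which shares its groups with the comparisons above. *GAS5* was 3.93-fold, *DANCR* 2.41-fold and *PVT1* 2.03-fold higher with all libraries (edgeR FDR = 0.00116, 0.00192 and 0.000353). *MIR31HG* had a log2 fold change of 0.62 ± 0.20 and an edgeR FDR of 0.0101. That made 3 of 8 called, beside 45.9% of tested genes and 22.0% called higher, and without replicate 3 of each group 1 of 8 was called, beside 29.7%. Without both libraries, 5 of 8 were called, beside 56.9%, with *GAS5* 7.08-fold, *DANCR* 3.48-fold, *PVT1* 2.42-fold and *MIR31HG* 1.78-fold higher and *MALAT1* at 0.543 of the growing level (edgeR FDR = 4.34e-06), where it stood at 0.588 with all libraries (edgeR FDR = 0.0222).

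The hairpin alone was tested by shHMGA1 against growing. None of the 8 tested RNAs passed the threshold by edgeR with all libraries, beside 0.27% of tested genes. None had an unadjusted edgeR p under 0.05, beside 1759 genes, and none was called by DESeq2, beside 0.741%. Without both libraries *MALAT1* was lower, with a log2 fold change of −0.63 ± 0.14 (edgeR FDR = 0.00583), 1 of 8 beside 2.59%. The growing samples then spanned 30.5 to 57.5 CPM and its shHMGA1 samples 21.3 to 31.7 CPM, so that the groups overlapped at their edges. *GAS5* had a log2 fold change of −0.03 ± 0.45 with all libraries and 0.82 ± 0.26 without both (edgeR FDR = 0.0362), and *DANCR* −0.03 ± 0.32 and 0.50 ± 0.16 (edgeR FDR = 0.0304). Growing replicate 4 stood at 292 CPM for *GAS5* and 77.2 CPM for *DANCR*, and leaving out replicate 4 of each group gave 0.69 and 0.42.

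Whether the hairpin altered the response to 4OHT was tested by the interaction, the log2 change with 4OHT in hairpin cells minus that in vector cells. No tested RNA passed, by edgeR with all libraries (0 of 8, beside 0.0% of tested genes), by edgeR without both (0 of 8, beside 0.00745%), or by DESeq2. At an unadjusted p under 0.05 there were 2 of 8 with all libraries, beside 1371 genes, and DESeq2 called 5 genes. *GAS5* had an interaction of 1.65 ± 0.64 with all libraries and 0.62 ± 0.37 without both (edgeR FDR = 0.426 and 0.993). *NEAT1* had 0.54 ± 0.31 and 0.76 ± 0.27 (edgeR FDR = 0.426 and 0.972), so its call in hairpin cells and lack of one in vector cells was not shown to be a difference between them. *DANCR* had 0.76 ± 0.45 and 0.05 ± 0.22, and *MALAT1* 0.05 ± 0.41 and 0.71 ± 0.20 (edgeR FDR = 0.954 and 0.421). The interaction of *MIR22HG* was 0.31 to 0.49 with each replicate number left out in turn, and it was called in none of these fits.

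*H19* and *CDKN2B-AS1* were too low to test. *H19*, an imprinted RNA of fetal tissue, had 0 to 5 counts in a sample and summed to 20 counts over growing samples, 7 over the shHMGA1 samples, 10 over the RIS samples and 2 over the RIS+shHMGA1 samples. It was at 0 in 4 of the 6 RIS+shHMGA1 samples, and every growing sample, at 0.119 to 0.435 CPM, lay above every RIS+shHMGA1 sample, none of which had more than 1 count. *CDKN2B-AS1*, also called ANRIL and known for recruiting repressive complexes to *CDKN2A* and *CDKN2B*, had 0 to 13 counts and summed to 29 counts over growing samples, 50 with the hairpin, 11 over RIS samples and 20 over RIS+shHMGA1 samples. Its shHMGA1 samples, at 0.415 to 1.17 CPM, lay above all RIS samples, at 0.0907 to 0.241 CPM. A count of 0 allows up to 3 counts, which is 0.119 to 0.439 CPM in these libraries, so these orders lie at the limit of detection, and this limit covers counting error only.

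The genes beside and inside the 10 RNAs were compared in RIS+shHMGA1 against shHMGA1. *IFNE*, the gene of an epithelial interferon within the *MIR31HG* locus, rose with a log2 fold change of 1.63 ± 0.33, from a median of 0.948 CPM to 2.73 CPM (edgeR FDR = 0.000540). *KLHL9* and *MTAP*, the nearest tested genes on either side, had log2 fold changes of 0.09 and 0.42 and did not pass. *CDKN2A*, the gene of the cell cycle inhibitors p16 and ARF that shares exon bases with *CDKN2B-AS1* on the other strand, rose by 1.72 ± 0.35 on the log2 scale, from a median of 5.87 CPM to 22.7 CPM (edgeR FDR = 0.000525). *CDKN2B* stood at 0.59 ± 0.25 and did not pass (edgeR FDR = 0.0408).

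Both tested neighbours of *PVT1* rose, *MYC*, a growth-promoting transcription factor, by 1.23 ± 0.26 (edgeR FDR = 0.000719) and *CYRIB* by 1.15 ± 0.34 (edgeR FDR = 0.00582) on the log2 scale. *NEAT1* and *MALAT1* are neighbours on chromosome 11; *FRMD8*, on the other side of *NEAT1*, had a log2 fold change of −0.66 ± 0.15 and fell (edgeR FDR = 0.00108). Near *GAS5*, *RC3H1* stood at −0.22 ± 0.15 and did not pass. *TLCD2*, beside *MIR22HG*, fell, with −1.48 ± 0.33 (edgeR FDR = 0.00102), while *MIR22HG* and *WDR81* on its other side did not pass. Next to *DANCR*, *USP46-DT* and *SCFD2* had log2 fold changes of 0.16 and −0.19, and neither passed. Next to *MEG3*, *WDR25* had 0.23 and *MEG8* 0.79, and next to *H19*, *CTSD* had −0.05, *MRPL23* −0.04 and *INS-IGF2* −0.74, and none of these passed.

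**Figure D3:**
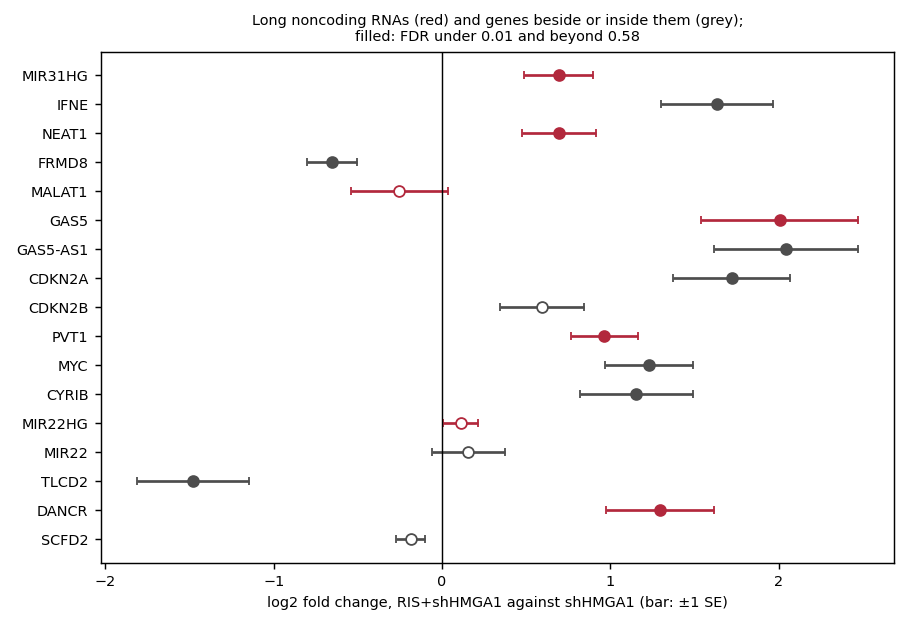
Fitted log2 fold change in RIS+shHMGA1 against shHMGA1 (points, bars ± 1 SE) of tested long noncoding RNAs (red) and of genes beside or inside their loci (grey), ordered by locus; filled symbols passed both thresholds (FDR 0.01, log2 fold change 0.58). *GAS5* (2.01) and *GAS5-AS1* (2.04) lie together, and *TLCD2*, beside *MIR22HG*, is at −1.48.

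The small RNA genes inside the hosts had counts of their own. Of the *GAS5* snoRNAs, *SNORD44*, *SNORD47*, *SNORD76*, *SNORD79* and *SNORD80* rose, with log2 fold changes of 1.42 to 2.06, and *SNORD81* had 1.44 ± 0.48 and did not pass (edgeR FDR = 0.0128). Their levels were low, for example 1.15 CPM (median) in shHMGA1 and 5.32 CPM in RIS+shHMGA1 for *SNORD76*, at 7 to 79 counts a sample. *GAS5-AS1*, annotated on the other strand, rose by 2.04 ± 0.43 on the log2 scale (edgeR FDR = 0.000654), from a median of 8.57 CPM to 39.6 CPM. The strand setting of the counting is not given in the sources used here, so reads of *GAS5* and of *GAS5-AS1* cannot be told apart, and with polyadenylated RNA the counts over snoRNA genes do not measure the mature snoRNAs.

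The row for *MIR22* held 7 to 55 counts and had a log2 fold change of 0.15 ± 0.22, as little as its host. *MIR31* was at 0 counts in all 24 samples, which allows up to 0.119 to 0.439 CPM per library, *MIR675* had at most 1 count, *MIR770* at most 6 counts, and *SNORA26*, the snoRNA inside *DANCR*, at most 2 counts. These libraries do not capture mature microRNAs, whose sequences are printed above, and their levels were not measured.

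*GAS5* and *DANCR* were set beside 18 other snoRNA host RNAs, all of them tested. In RIS+shHMGA1 against shHMGA1, 13 of the 18 rose and 0 fell, with a median log2 fold change of 1.24, beside a background of 19.6% called higher and a median of −0.02 over all tested genes. *ZFAS1* (2.03 ± 0.49, edgeR FDR = 0.00164) and *SNHG5* (1.83 ± 0.45, edgeR FDR = 0.00179) had the largest values, close to the 2.01 of *GAS5*. *SNHG7* (−0.10 ± 0.13) and *SNHG11* (0.046 ± 0.14) were among the 5 that did not pass. Without replicate 3 of each group 4 of the 18 were called, near the 22.7% of tested genes called in either direction. Without any other 1 number 9 to 14 were, beside 23.8% to 41.1%. In RIS against growing 0 of the 18 passed with all libraries, and 2 had an unadjusted edgeR p under 0.05, beside 4407 of the 13356 tested genes. Without both libraries 11 of the 18 rose, with a median of 0.91, where 19.2% of tested genes rose. In RIS+shHMGA1 against RIS 1 of the 18 rose with all libraries, beside 1.77% of tested genes, and 8 rose without both, beside 10%.

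**Figure D4:**
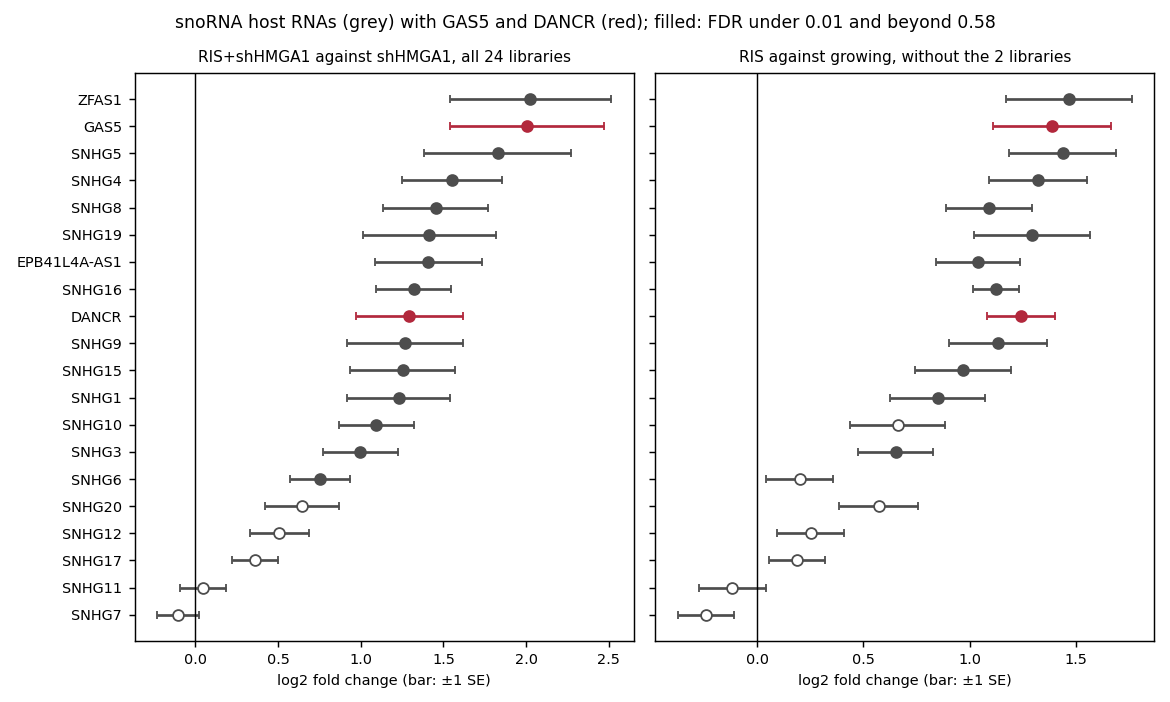
Fitted log2 fold change (points, bars ± 1 SE) of 18 snoRNA host RNAs (grey) and of *GAS5* and *DANCR* (red), left for RIS+shHMGA1 against shHMGA1 with all libraries and right for RIS against growing without growing replicate 4 and RIS replicate 2; filled symbols passed the thresholds. *ZFAS1*, *GAS5* and *SNHG5* are at the top on both sides, and *SNHG7* and *SNHG11* are the lowest on both sides.

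In RIS+shHMGA1 against shHMGA1, smaller shares of the other lists were called than of the snoRNA host RNAs. Of all tested genes, 19.6% rose and 19.5% fell with all libraries, and 22.5% and 21.9% without both. Of 8 tested microRNA host RNAs, 0 rose and 1 fell, namely *CARMN*, the host of miR-143 and miR-145, with a log2 fold change of −3.01 ± 0.79 (edgeR FDR = 0.00287). In the fit without both libraries 2 of these rose and 2 fell. Of 7 other tested long noncoding RNAs, 1 rose, *LINC-PINT* (1.24 ± 0.24, edgeR FDR = 0.000397), and *NORAD* (−0.02 ± 0.17) and *TUG1* (−0.56 ± 0.21) did not pass; 2 rose in the fit without both. Of 12 paraspeckle proteins, which assemble on *NEAT1*, 0 rose and 3 fell, *HNRNPH3* (−1.08 ± 0.25), *RBM14* (−0.86 ± 0.22) and *SFPQ* (−0.63 ± 0.12), with a median of −0.36 over the list. Without replicate 1, 3 or 5 of each group 2 were called, beside 23.8%, 22.7% and 32.5% of tested genes. In the fit without both libraries 3 were called, beside 44.4%. Of 12 tested imprinted genes, 0 rose and 2 fell, *NNAT* (−1.49 ± 0.27) and *MEST* (−1.39 ± 0.33). Without replicate 6 of each group 1 was called, beside 30.8% of tested genes. At an FDR of 0.05 or with the samples of the comparison alone 4 were called, beside 45.5% and 44.5%. Without both libraries 3 fell. In RIS against growing, 0 of these 12 were called with all libraries and, without both, 1 rose and 4 fell, beside 19.2% and 20.5% of tested genes. The gene that rose was *PEG10* (0.78 ± 0.10), and those that fell were *MEST* (−1.90 ± 0.23), *NNAT* (−1.47 ± 0.19), *IGF2*, the growth factor gene beside *H19* (−1.20 ± 0.23), and *SGCE* (−0.65 ± 0.17).

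The genes most like each RNA over the 24 samples were found by Pearson's r of log2 CPM, which the 4 groups and the libraries that stood apart largely set, and r is given as a description only. For *GAS5* they were the ribosomal protein genes *RPS13*, *RPL10A* and *RPS3* (r = 0.997 each). For *DANCR* they were an identifier with no symbol (Entrez 100287619, r = 0.994), the mitochondrial ribosomal protein gene *MRPL36* (r = 0.993) and *DAD1* (r = 0.993). For *MIR31HG* they were *MRTO4* (r = 0.956), *PDCD2L* (r = 0.944) and the nucleolar gene *NOP56* (r = 0.944). For *PVT1* they were *SAT2* (r = 0.976), *ST20* (r = 0.975) and *TMEM38B* (r = 0.975).

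For *NEAT1* they were 3 genes of the mitochondrial genome, *ND2* (r = 0.784), *ND1* (r = 0.746) and *COX2* (r = 0.746). For *MALAT1* the first is not reported, and next came *DST* (r = 0.866) and *MACF1* (r = 0.860), both very long messenger RNAs of the cytoskeleton. For *MEG3* they were an identifier with no symbol (Entrez 100507152, r = 0.946), *TCIRG1* (r = 0.788) and *CSAD* (r = 0.775). For *MIR22HG* they were the stress-response factor *ATF4* (r = 0.864), *LXN* (r = 0.827) and *DGKI* (r = 0.809).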

How the data were processed

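RNA-seq counts of 24 IMR90 samples, 6 in each of 4 groups, were analysed; groups and replicate numbers came from the sample titles. Libraries were prepared from polyadenylated RNA with a stranded kit. Per the labels, reads were trimmed with cutadapt 1.10.0 and mapped with STAR 2.5.0b to hg19. The authors deposited raw counts per Entrez gene from Rsubread, without normalisation; its version, annotation and strand setting are not given in the sources used here, so overlapping and antisense genes are uncertain. Entrez identifiers were named from a RefSeq table (GRCh38.p14), which held 23696 of 25702.

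Counts were tested with edgeR 4.0.16 (limma 3.58.1, R 4.3.3): filterByExpr by group, TMM library sizes and a quasi-likelihood fit of the 4 group means. A gene was called at a Benjamini-Hochberg FDR under 0.01, adjusted over all tested genes, and an absolute log2 fold change over 0.58. CPM used TMM library sizes. Comparisons share groups, the growing controls above all. The fit without growing replicate 4 and RIS replicate 2 used the same steps and 13416 tested genes. These libraries were picked out by marker levels in these same data, so the FDRs of that fit can be too small. Other alternatives were DESeq2 1.42.0, RLE normalisation, no low-count filter, a floor of 1 CPM in 6 or more samples, a block for the replicate number, samples of the contrast only, an FDR of 0.05, and leaving out each replicate number. The block together with leaving out both libraries was chosen after seeing the data. The script was checked on simulated data with changes set in RIS+shHMGA1 against shHMGA1. There, 52.5% of genes given a log2 change of 1 in either direction were called, and 95% of those given 2. An uncalled gene can therefore not be taken as unchanged.

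The 10 RNAs and the lists were chosen with earlier results of these data known. Named were all 10 RNAs, *HMGA1*, up to 2 called genes in each direction per list by size in RIS+shHMGA1 against shHMGA1, the nearest tested and the overlapping genes of each RNA, and the 3 genes most like it by r with a mean log2 CPM of at least 2; list members outside this rule were named after their values were seen. A few genes that the rule or a list would include are not reported here, and counts of that list leave them out. Levels were not compared between genes, since the annotated lengths differ between isoforms. Coordinates are 1-based on GRCh37, from GENCODE v44 lifted to that build; microRNA sequences are from RefSeq, matched to GRCh37 exactly. No pair of replicates was as alike as sampling noise allows.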

Additional observations from a re-analysis of the deposited data

Results flagged for a closer look

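In 4 of 44 sets of 6 samples (11 genes in 4 groups), 1 library lay apart from the other 5 by Dixon's ratio, the gap to the nearest sample over the whole range, against its 95% critical value; chance alone passes it in about 1 in 20 sets. Growing replicate 4 was the highest growing sample for *GAS5* (ratio 0.854, 292 CPM against at most 72.3 CPM in the others), for *PVT1* (ratio 0.872, 10.2 CPM against at most 4.81 CPM) and for *DANCR* (ratio 0.840, 77.2 CPM against at most 26.3 CPM). RIS replicate 2 was the highest RIS sample for *MALAT1* (ratio 0.894, 80.3 CPM against at most 24.6 CPM). These are the libraries whose summed senescence and proliferation markers also stood outside their groups. What set them apart was not tested, and the main fitted values of comparisons that use their groups are given with and without them.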

How the results depend on the processing

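The count of RNAs called was 0 in RIS against growing and became 5 without growing replicate 4 and RIS replicate 2, and 4 when the replicate block was added to that fit (39.7% and 39.1% of all genes). In shHMGA1 against growing it went from 0 to 1 in both of these fits (2.59% and 3.61%). In RIS+shHMGA1 against growing it went from 3 to 5 in both (56.9% and 56.2%) and to 5 at an FDR of 0.05 (51.0%). In RIS+shHMGA1 against RIS it went from 0 to 1 with RLE normalisation (2.44%), the replicate block (12.3%) or an FDR of 0.05 (21.7%), to 2 with DESeq2 (11.8%) or without both libraries (12.5%), and to 3 without both and with the block (14.4%). With each replicate number left out in turn the counts ran from 0 to 2, 0 to 0, 1 to 4 and 0 to 3 in these comparisons (0.0% to 15.6%, 0.0374% to 0.187%, 22.9% to 54.1% and 0.105% to 16.5%), from 1 to 4 in RIS+shHMGA1 against shHMGA1 (5 with all samples; 22.7% to 41.1%) and from 0 to 0 for the interaction. The low end of 1 came without replicate 3.

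Directions of small, uncalled log2 fold changes turned as follows. Without both libraries, and with the replicate block added, *MIR31HG* in shHMGA1 against growing was at 0.14 and 0.12, *NEAT1* in RIS against growing at −0.065 and −0.086, *MALAT1* in RIS+shHMGA1 against RIS at 0.083 and 0.075, *GAS5* in shHMGA1 against growing at 0.82 and 0.77 and *DANCR* at 0.50 and 0.45; the replicate block alone gave 0.33 for *GAS5* and 0.14 for *DANCR* there. Leaving out single replicate numbers, sign changes fell within these ranges: −0.15 to 0.13 for *MIR31HG*, −0.29 to 0.044 for *NEAT1*, −0.19 to 0.69 for *GAS5* and −0.13 to 0.42 for *DANCR* in shHMGA1 against growing; −0.03 to 0.40 for *NEAT1*, −0.18 to 0.10 for *MEG3* and −0.0078 to 0.084 for *HMGA1* in RIS against growing; −0.10 to 0.21 for *MEG3* in RIS+shHMGA1 against growing; and, for *MALAT1*, −0.60 to 0.05 in RIS+shHMGA1 against RIS and −0.17 to 0.49 in the interaction, which was at 0.71 without both libraries. The cause was not tested.

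In RIS+shHMGA1 against shHMGA1, *NEAT1* was also lost with no low-count filter (edgeR FDR = 0.0145) and with the replicate block (edgeR FDR = 0.0125). The main fit did not pair samples by replicate number. Same-numbered samples deviated together with r over 0.1 in 24 of 36 pairs. Their mean r was 0.175, against −0.050 for other numbers, and 8 of 24 samples correlated best with their own number. Both libraries that stood apart entered these deviations (growing replicate 4 with RIS replicate 2, r = −0.932). These values therefore cannot settle whether the numbers pair the samples. With at most 5 and 13 counts a sample, *H19* and *CDKN2B-AS1* could not be tested at this depth.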
